A study of Mus musculus with 24 samples.

Results

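Pericytes and vascular smooth muscle cells, together called mural cells, wrap the vessels of the cortex, and the genes that mark them were followed here across an experimental stroke in mice. The set was defined by symbol as 8 genes, Pdgfrb, Rgs5, Abcc9, Anpep, Notch3, Acta2, Tagln and Myh11, of which 7 had a row in all 4 expression tables. Tagln was not analysed here. The tables held 14769 genes in all and 14014 in common. The rule picks rows by symbol alone.

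The middle cerebral artery of male mice aged 3 to 4 months was blocked with a filament for 1 h, and blood was allowed back for 1 day before the cortex was taken. Some animals were wild type (WT), while the others carried a knockout (KO) of ciRS-7, the neuronal circular RNA of the Cdr1as locus known for its many binding sites for miR-7. The labels give 1 strain, C57BL/6N-Cdr1asem1Nikr, for animals of both genotypes. Each animal gave 2 cortex samples, which the labels mark CL and PI without spelling the marks out. The 24 libraries of ribosome-depleted total RNA made 4 groups of 6, 1 for each mark and genotype (CL WT, CL KO, PI WT and PI KO), all from animals that had undergone the occlusion. The study's stated aim was to compare the genotypes after stroke.

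Pericytes sit on capillaries, where platelet-derived growth factor from the endothelium acts on the receptor Pdgfrb to recruit and keep them. Smooth muscle cells ring arterioles and contract through smooth muscle actin (Acta2) and myosin (Myh11), whose genes are driven by the serum response factor SRF with myocardin-family cofactors, while the receptor Notch3 maintains the identity of arterial smooth muscle and of pericytes. In stroke, mural cells are known to constrict, to die or to leave the vessel wall, which bears on the return of flow and on the blood-brain barrier.

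The tables give log2 CPM, meaning read counts scaled to the size of the library, on a log2 scale. The authors' values had been drawn in at both ends of each group, so that only the 4 inner values of 6 could be recovered. Group values below are therefore the second lowest, the median and the second highest library, and differences are between means of the 4 inner values (trimmed means), tested with a moderated trimmed-mean test in limma with Benjamini-Hochberg adjustment over all genes of a table. Calls required an adjusted p under 0.05. Overlap between groups and counts of animals were read from values whose outer ends are drawn in, so the outermost libraries may overlap, and single animals may go the other way, where none is seen to. Depth read from the steps of the low values was 3.74 to 10.5 M reads (megareads) per library (median 6.90), the shallowest being CL KO library 6, so that 3 reads, the limit for a gene with none, were worth 0.286 to 0.803 CPM. Cdr1as, the gene altered in KO, was deposited at 2610 to 3801 CPM in the WT libraries and at no more than 0.166 CPM in any KO library.

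None of the 7 mural genes passed the test in any of the 5 comparisons. Between PI WT and CL WT 0 of 7 were called, where 10.6% of all genes were, and between PI KO and CL KO 0 of 7, where 10% were. Of all genes, 5.2% were called higher and 5.4% lower in PI WT, and 5.11% higher and 4.94% lower in PI KO. The higher calls were thus 49.1% and 50.8% of all calls, and 37.5% and 37.6% with every library centred on its median gene. At an unadjusted p under 0.05 there were 2 members in each comparison of PI with CL, against 23.9% and 24.9% of all genes. limma on the deposited values as they stand, whose spread is understated, called 3 members in WT (Abcc9, Notch3 and Acta2) and 3 in KO (Abcc9, Anpep and Myh11), where it called 44.6% and 46.5% of all genes. The differences ranged from -0.61 to 0.61 in WT and from -0.81 to 0.31 in KO on the log2 scale, with standard errors of 0.09 to 0.47, and 5 of 7 were negative in each. The median difference of the members was -0.10 in WT and -0.14 in KO, beside 0.01 and -0.00068 for all genes. In bulk tissue, fewer cells of a type and less RNA per cell cannot be told apart.

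**Figure D1:**
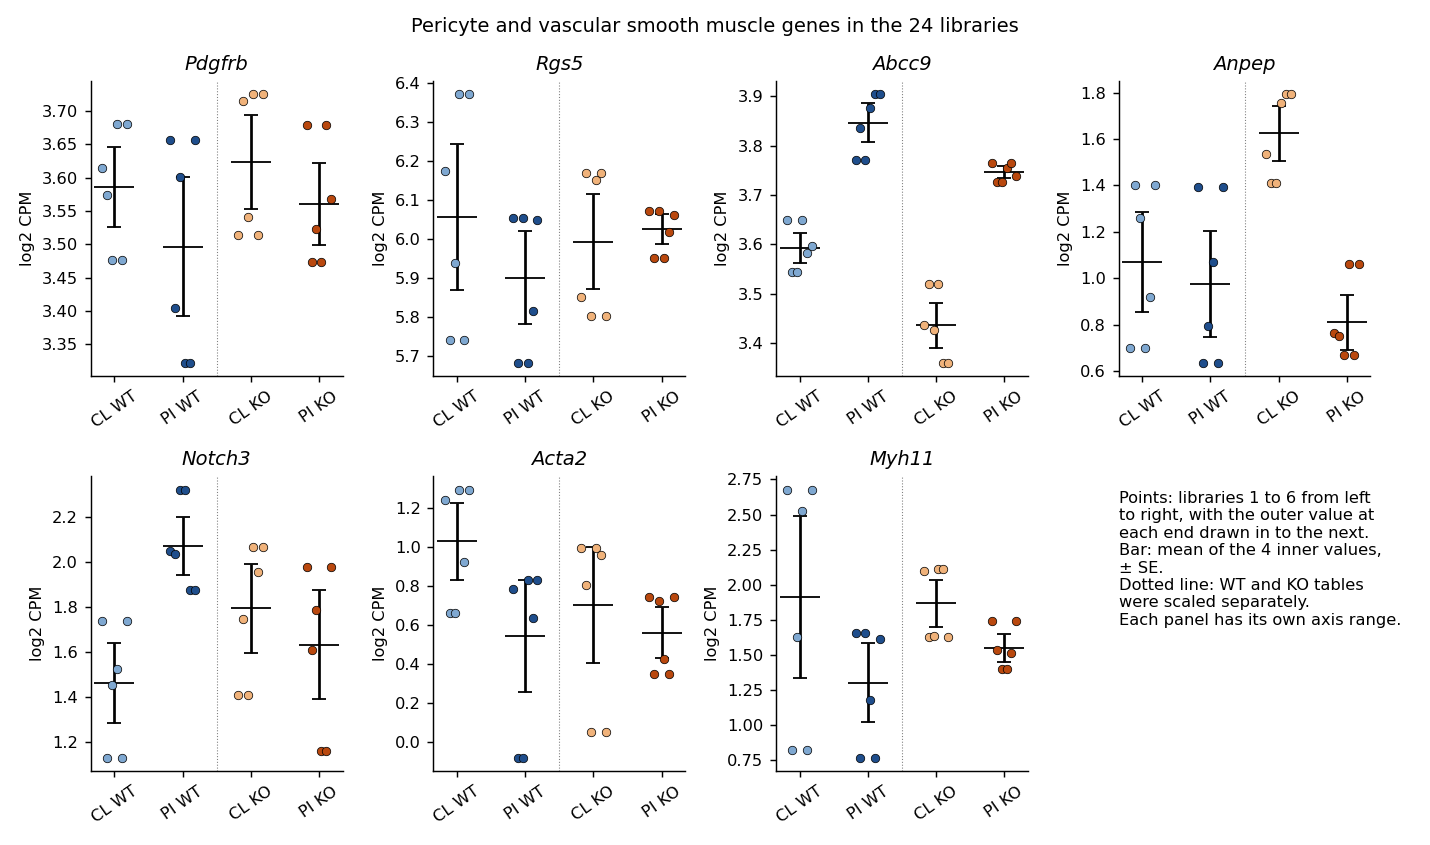
Expression of the 7 mural genes in log2 CPM (y axis, a separate range for each gene) in the 6 libraries of each group (x axis), with the outer value at each end drawn in to the next one; the bar is the mean of the 4 inner values with its SE, and WT and KO values come from separately scaled tables. As drawn in, the points do not overlap for Abcc9, higher in PI than in CL in both genotypes, for Notch3, higher in PI WT than in CL WT, and for Anpep, lower in PI KO than in CL KO.

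Each member analysed lies on a chromosome of its own. In the GENCODE M21 annotation of GRCm38, Rgs5 lies on chromosome 1 at 169655501 to 169695813 (plus strand), Abcc9 on chromosome 6 at 142587862 to 142702315 (minus strand) and Anpep on chromosome 7 at 79821803 to 79861059 (minus strand). Notch3 lies on chromosome 17 at 32120820 to 32166852, Acta2 on chromosome 19 at 34241090 to 34255590 and Myh11 on chromosome 16 at 14194535 to 14291372, all on the minus strand. All are protein-coding. An antisense gene, 5330439B14Rik, shares 158 exon bases with Abcc9 (1.89% of its exon bases), and the antisense gene Gm17276 shares 488 with Notch3 (6.03%). Whether counting used strand is not given in the sources used here, so reads from these stretches cannot be assigned to 1 strand.

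Per kilobase of exon, Rgs5 stood far above the other members. In CL WT its level was 14.6 CPM per kilobase (second lowest 11.8, second highest 18.2), followed by Pdgfrb at 2.19 (2.03 to 2.34) and Abcc9 at 1.44 (1.39 to 1.50). This order of the 3 highest was the same in all 4 groups, with no overlap between neighbours in the inner libraries. Below them in CL WT came Acta2 at 0.929, Anpep at 0.508, Myh11 at 0.495 and Notch3 at 0.341 CPM per kilobase. Between their second lowest and second highest libraries Anpep overlapped both Myh11 and Notch3, and Myh11 overlapped Acta2, so the order of these 4 was resolved only in part. Acta2 (0.720 to 1.12) lay above Anpep (0.393 to 0.639) and Notch3 (0.271 to 0.412) without overlap. Notch3 stood lowest of the 7 in CL WT and the fifth in PI WT, at 0.520 CPM per kilobase, where its inner libraries (0.454 to 0.619) overlapped those of Anpep and Acta2.

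In reads, the median library held 423 to 468 reads of Rgs5 per group, 75.0 to 87.1 of Pdgfrb and 76.0 to 101 of Abcc9. Notch3 had a median of 19.8 to 28.8 reads, Myh11 18.3 to 29.6, Anpep 10.8 to 22.1 and Acta2 9.56 to 14.9. Notch3, Myh11, Anpep and Acta2 were thus measured with few reads, and each had a larger standard error than Pdgfrb, Rgs5 and Abcc9 in both comparisons of PI with CL.

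Sequence upstream of the start is shown for Acta2, the member with the best known SRF elements, and for Abcc9, the member whose inner values were separate between PI and CL in both genotypes. The 250 bases upstream of each start in RefSeq (GRCm38.p6) are printed 5′ to 3′ on the gene's strand, at chr19:34255374-34255623 (minus) and chr6:142702275-142702524 (minus). Capitals mark CArG-like elements in Acta2 and the core of the motif bound by RBPJ, the DNA-binding partner of Notch receptors, in Abcc9.
Acta2: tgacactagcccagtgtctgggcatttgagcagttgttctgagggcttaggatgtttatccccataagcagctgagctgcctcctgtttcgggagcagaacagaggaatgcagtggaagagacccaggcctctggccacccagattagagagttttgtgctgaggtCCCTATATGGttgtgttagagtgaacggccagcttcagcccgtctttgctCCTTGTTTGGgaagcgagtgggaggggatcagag
Abcc9: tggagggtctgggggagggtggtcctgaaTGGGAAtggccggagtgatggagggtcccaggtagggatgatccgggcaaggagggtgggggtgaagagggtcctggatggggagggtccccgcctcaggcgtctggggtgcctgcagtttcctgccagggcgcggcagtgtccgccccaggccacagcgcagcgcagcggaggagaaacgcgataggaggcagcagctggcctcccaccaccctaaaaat

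Promoters of 300 bases were searched on both strands for the CArG box, the SRF motif in which a run of A or T lies between CC and GG, and for TGGGAA. A strict CArG box stood in 1.63% of 32851 promoters and in none of the 5 members searched (Rgs5, Abcc9, Anpep, Notch3 and Acta2). Pdgfrb and Myh11 were not among the members searched. With at most 1 core base other than A or T allowed, a form searched after the data had been seen, the share of all promoters was 9.98%, and Acta2 held 2 such elements, CCCTATATGG beginning 84 bases upstream of the start and CCTTGTTTGG beginning 34 bases upstream. The Acta2 promoter is known for CArG elements of this degenerate kind. TGGGAA stood in 25.6% of promoters, in Abcc9 at 221 bases upstream and in Acta2 at 27 bases upstream, where it overlaps the nearer CArG-like element. Of 17 genes of the SRF list with an entry, 6 held a strict CArG box (Actg1, Cnn2, Fhl2, Filip1l, Srf and Vcl). Of the genes of that list with an entry that rose in PI, Fhl2 (called in KO) held one, while Flna, Tpm4, Tagln2, Myh9 and Ccn1 held neither the strict nor the looser form. These matches describe the letters and do not show binding.

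Among the pericyte genes, the K-ATP channel subunit gene Abcc9 differed in the same direction in both genotypes, though short of the threshold. Abcc9 encodes SUR2, which pairs with the pore Kcnj8 in the channel that sets the membrane potential of mural cells. In CL WT its second lowest, median and second highest values were 3.54, 3.59 and 3.65 log2 CPM, and in PI WT 3.77, 3.86 and 3.90. In CL KO they were 3.36, 3.43 and 3.52, and in PI KO 3.73, 3.75 and 3.77. The inner PI values lay above the inner CL values in both genotypes. With outer values drawn in, the PI library was therefore bound to be the higher in 6 of 6 WT and 6 of 6 KO animals. The margins were 0.12 to 0.32 and 0.21 to 0.41. The difference was 0.25 in WT (SE 0.09, 95% interval 0.06 to 0.45, adjusted p = 0.0995 by the moderated trimmed-mean test in limma), a 1.19-fold difference. In KO it was 0.31 (SE 0.10, 0.09 to 0.53, adjusted p = 0.0684 by the same limma-based test), or 1.24-fold. Deposited values without overlap were seen for 2 of 7 members in each comparison of PI with CL, and for 32.8% and 34.3% of all genes.

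The partner subunit Kcnj8, itself a pericyte marker, stood at 0.87 log2 CPM in CL WT and 1.65 in PI WT, a difference of 0.78 (SE 0.26, adjusted p = 0.0839 by the limma-based test). In KO the difference was 0.84 (SE 0.38, adjusted p = 0.194 by the same test). Neither passed. Of the 4 K-ATP subunit genes tested, Abcc8, which encodes the SUR1 subunit, fell in PI WT by 0.35 (SE 0.10, adjusted p = 0.0425 by the limma-based test), and in KO its difference was -0.54 (SE 0.17, adjusted p = 0.0584). The pore gene Kcnj11 differed by 0.06 and 0.27 and was not called.

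Anpep, the surface aminopeptidase CD13 used to sort brain pericytes, had the largest difference of the members in KO, where it lay lower in PI. In CL KO its values were 1.41, 1.65 and 1.79 log2 CPM and in PI KO 0.67, 0.76 and 1.06, with the inner values separate. As drawn in, the PI library was therefore bound to be lower in 6 of 6 animals, by 0.66 to 1.12. The difference was -0.81 (SE 0.24, 95% interval -1.34 to -0.29, adjusted p = 0.0530 by the limma-based test), which is 0.569-fold. The call turned on the setting, since the same test passed Anpep with median centring (adjusted p = 0.0425), with log2(CPM + 1) (0.0441), with a filter on low genes (0.0412) and with no trend in the prior variance (0.0246), and the paired form did not (0.0702). In CL WT the values were 0.70, 1.09 and 1.40 and in PI WT 0.64, 0.93 and 1.39, and the groups overlapped throughout. The WT difference was -0.10 (SE 0.31, -0.76 to 0.57), and the PI library was the higher in 2 of 6 animals. Set against each other, the KO and WT differences differed by -0.72 (SE 0.38, -1.52 to 0.09, adjusted p = 0.992 for the interaction by the limma-based test), so a difference between genotypes was not shown. Median reads were 22.1 in CL KO and 10.8 in PI KO.

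Notch3, the receptor of arterial mural cells, had higher inner values in PI WT than in CL WT, though short of the threshold. Its groups overlapped in KO. In CL WT its values were 1.13, 1.49 and 1.74 log2 CPM and in PI WT 1.88, 2.05 and 2.32. The inner values were separate, so as drawn in the PI library was bound to be the higher in 6 of 6 WT animals, by 0.14 to 0.91. The difference was 0.61 (SE 0.22, 95% interval 0.13 to 1.09, unadjusted p = 0.0165 and adjusted p = 0.105 by the limma-based test), or 1.53-fold. In CL KO the values were 1.41, 1.85 and 2.07 and in PI KO 1.16, 1.70 and 1.98, with the PI library higher in 2 of 6 animals and a difference of -0.16 (SE 0.28, -0.76 to 0.44). The interaction was -0.77 (SE 0.37, -1.53 to -0.01, unadjusted p = 0.0480 and adjusted p = 0.992 by the limma-based test). Notch3 was the 1 member of 7 under an unadjusted p of 0.05 for the interaction. Of all genes 4.55% were, and 0% were called. A difference between genotypes was thus not shown.

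Pdgfrb and Rgs5 differed little between PI and CL, within the spread of the libraries. Pdgfrb, the growth factor receptor, had values of 3.48, 3.59 and 3.68 log2 CPM in CL WT and 3.32, 3.50 and 3.66 in PI WT, and of 3.51, 3.63 and 3.72 in CL KO and 3.47, 3.55 and 3.68 in PI KO. The groups overlapped in both genotypes. Its differences were -0.09 (SE 0.12, 95% interval -0.35 to 0.17) in WT and -0.06 (SE 0.11, -0.31 to 0.18) in KO, and the PI library was higher in 2 of 6 animals of each genotype. Rgs5, a regulator that shortens G protein signalling in mural cells, had values of 5.74, 6.06 and 6.37 in CL WT and 5.68, 5.93 and 6.06 in PI WT. In CL KO they were 5.80, 6.00 and 6.17 and in PI KO 5.95, 6.04 and 6.07. Its difference was -0.16 (SE 0.16, -0.51 to 0.19) in WT and 0.03 (SE 0.10, -0.19 to 0.26) in KO, and the latter turned to -0.0036 with libraries centred on their median gene. As folds, the intervals of Pdgfrb ran from 0.784 to 1.13 in WT and from 0.807 to 1.14 in KO, and those of Rgs5 from 0.704 to 1.14 and from 0.875 to 1.20.

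Both smooth muscle genes had lower trimmed means in PI than in CL in both genotypes, within the spread of the libraries. Acta2, smooth muscle actin, had values of 0.66, 1.08 and 1.29 log2 CPM in CL WT and -0.08, 0.71 and 0.83 in PI WT. As drawn in, the PI library was the higher in 0 of 6 WT animals, although the groups overlapped, and the difference was -0.49 (SE 0.34, 95% interval -1.22 to 0.25, adjusted p = 0.436 by the limma-based test). In KO the values were 0.05, 0.88 and 0.99 in CL and 0.35, 0.57 and 0.74 in PI, with a difference of -0.14 (SE 0.35, -0.91 to 0.62) and the PI library higher in 2 of 6 animals. Myh11, the smooth muscle myosin heavy chain, had values of 0.82, 2.07 and 2.68 in CL WT and 0.76, 1.39 and 1.66 in PI WT. Its difference was -0.61 in WT (SE 0.47, -1.63 to 0.41, adjusted p = 0.486 by the same test), with the widest interval of the members. In KO its values were 1.63, 1.86 and 2.11 in CL and 1.40, 1.52 and 1.74 in PI, and the difference was -0.32 (SE 0.22, -0.80 to 0.16). The PI library was higher in 1 of 6 animals of each genotype.

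**Figure D2:**
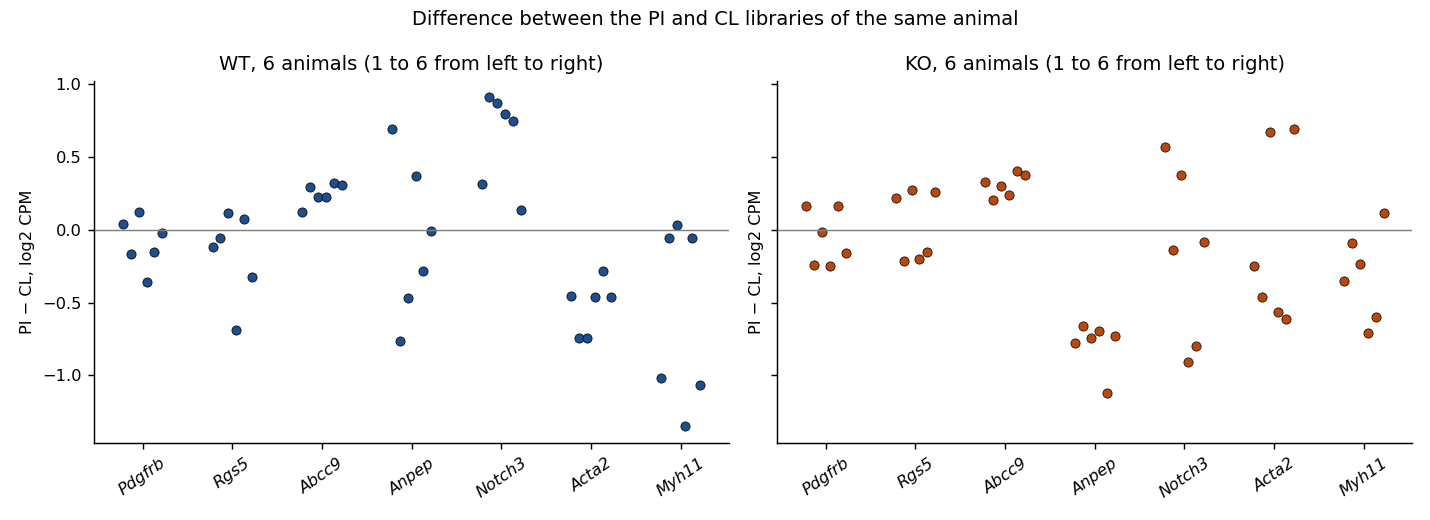
PI minus CL difference in log2 CPM (y axis) of each animal for the 7 mural genes (x axis), WT animals on the left and KO animals on the right, with each point 1 animal and outer library values drawn in. As drawn in, Abcc9 lies above 0 in all 12 animals, Notch3 above 0 in the 6 WT animals, Acta2 below 0 in the 6 WT animals and Anpep below 0 in the 6 KO animals. For Abcc9, Notch3 and Anpep this follows from the separation of the drawn-in groups.

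The width of the Myh11 interval in WT came with a split among the CL WT libraries that other vascular genes shared. Myh11 stood at 6.40, 5.76 and 6.40 CPM in CL WT libraries 1, 4 and 6 (39.8 to 45.8 reads) and at 1.77, 3.08 and 1.77 CPM in libraries 2, 3 and 5 (14.1 to 17.9 reads), with the outer values drawn in. Rgs5 stood at 72.3, 82.8 and 82.8 CPM in libraries 1, 4 and 6 and at 53.5, 61.3 and 53.5 in the others. Acta2 stood at 2.36, 2.45 and 2.45 CPM in libraries 1, 4 and 6 and at 1.58, 1.58 and 1.89 in libraries 2, 3 and 5. In the same order, Pdgfrb stood at 12.2, 12.8 and 12.8 CPM against 11.9, 11.1 and 11.1, and Notch3 at 3.34, 2.88 and 3.34 against 2.19, 2.74 and 2.19. Abcc9 followed by a narrow margin, at 12.5, 12.5 and 12.1 CPM against 11.7, 11.7 and 12.0. Anpep did not share the split, at 1.62, 1.62 and 2.64 CPM in libraries 1, 4 and 6 and at 2.64, 2.40 and 1.89 in libraries 2, 3 and 5. The summed CPM of 15 endothelial markers was 234, 237 and 235 in libraries 1, 4 and 6 and 170, 175 and 170 in libraries 2, 3 and 5.

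Among the PI WT libraries the high ones were numbers 1, 3 and 6. There the endothelial sum was 244, 222 and 245 CPM, against 172, 182 and 187 in libraries 2, 4 and 5. Rgs5 was at 66.5, 66.5 and 66.2 CPM in libraries 1, 3 and 6 and at 51.4, 51.4 and 56.3 in libraries 2, 4 and 5, and Pdgfrb at 12.6, 12.1 and 12.6 against 10.6, 10.01 and 10.01. Myh11 was at 3.15, 3.15 and 3.05 CPM in libraries 1, 3 and 6 and at 1.70, 2.26 and 1.70 in the others. Anpep followed in part, at 2.63, 1.73 and 2.63 against 1.55, 2.10 and 1.55. The other members did not follow. Abcc9 was at 13.6, 13.6 and 14.97 CPM in libraries 1, 3 and 6 and at 14.3, 14.7 and 14.97 in libraries 2, 4 and 5. Notch3 was at 4.15, 5.004 and 3.67 against 4.11, 5.004 and 3.67, and Acta2 at 1.72, 0.947 and 1.78 against 0.947, 1.78 and 1.56. In KO the endothelial sum spanned less, from 193 to 225 CPM in the CL and from 192 to 212 in the PI libraries. Animal 4 was thus high in its CL and low in its PI library and animal 3 the reverse, and these animals gave the lowest (-0.69) and the highest (0.12) PI minus CL difference of Rgs5 in WT. The median endothelial sum was 204 CPM in both CL WT and PI WT, 209 in CL KO and 199 in PI KO, and all 15 endothelial genes were measured. Taken gene by gene, the PI minus CL difference was positive for 13 of 15 in WT and 10 of 15 in KO, with medians of 0.30 and 0.08. The part of vessel content in the members' differences was not tested.

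**Figure D3:**
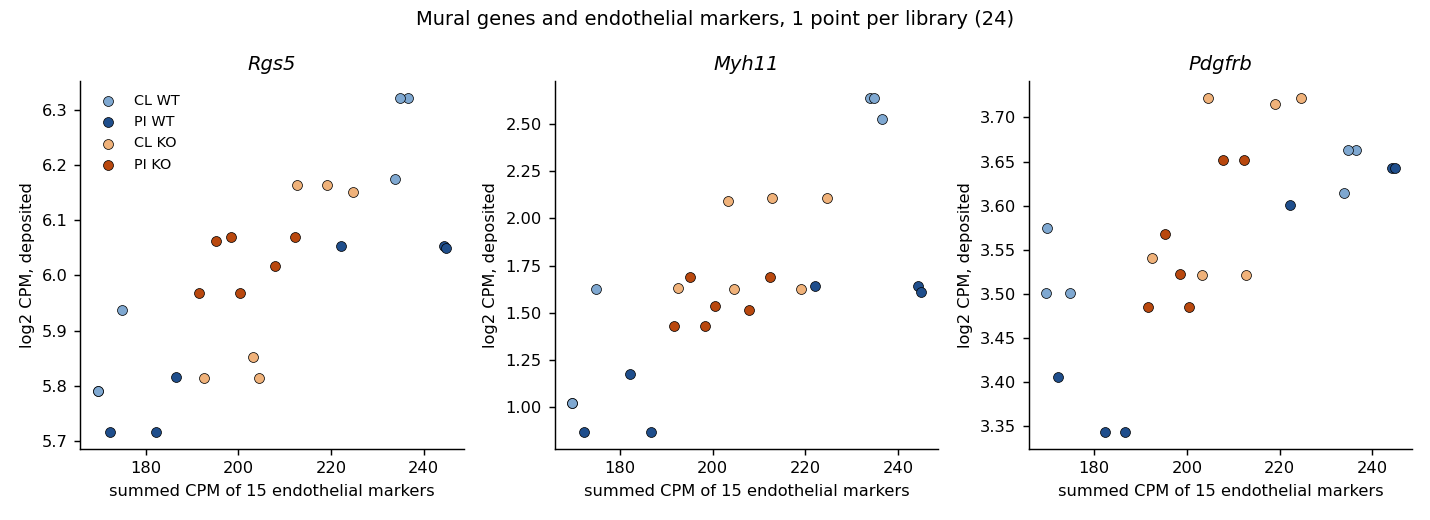
Deposited log2 CPM of Rgs5, Myh11 and Pdgfrb (y axes) against the summed CPM of 15 endothelial markers (x axis), 1 point for each of the 24 libraries, coloured by group. The WT libraries fall at both ends of the x axis, and the CL WT libraries with endothelial sums of 234 to 237 CPM are those with the most Rgs5 and Myh11.

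No member was called between genotypes. Between PI KO and PI WT 0 of 7 members were called, where 0.0208% of all genes were, and between CL KO and CL WT 0 of 7, where 0.0279% were. At an unadjusted p under 0.05 there were 0 and 1 members, against 5.75% and 5.73% of all genes, and limma on the deposited values called 1 (Notch3) and 2 (Abcc9 and Anpep), where it called 16.5% and 16.1% of all genes. The median differences were 0.02 and -0.04, beside -0.0049 and -0.0020 for all genes. These comparisons share their libraries with those of PI and CL, and each table was scaled on its own.

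In the CL cortex, Anpep had the largest genotype difference of the members. Its values were 0.67, 1.06 and 1.37 log2 CPM in CL WT and 1.38, 1.62 and 1.76 in CL KO, and the inner values of the groups were only just separate. The difference was 0.56 (SE 0.26, 95% interval 0.00098 to 1.11, unadjusted p = 0.0497 and adjusted p = 0.871 by the limma-based test). Abcc9 lay lower in the inner CL KO than in the inner CL WT values, at 3.33, 3.40 and 3.49 against 3.51, 3.56 and 3.61, with a difference of -0.15 (SE 0.10, -0.36 to 0.06). Deposited values without overlap were seen for these 2 of 7 members and for 13.5% of genes. Pdgfrb (0.05), Rgs5 (-0.05), Notch3 (0.34), Acta2 (-0.32) and Myh11 (-0.04) overlapped between genotypes, with adjusted p of 0.917 to 0.997 by the same test.

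In the PI cortex, Notch3 had the largest genotype difference, with values of 1.19, 1.73 and 2.01 log2 CPM in PI KO and 1.90, 2.07 and 2.34 in PI WT. The groups overlapped, and the difference was -0.43 (SE 0.25, 95% interval -0.98 to 0.11, adjusted p = 0.865 by the limma-based test). Abcc9 was at 3.76, 3.78 and 3.80 in PI KO and 3.80, 3.88 and 3.93 in PI WT, with a difference of -0.09 (SE 0.09, -0.29 to 0.11). Its inner values met at 3.80, so a separation of the groups was not shown, although its deposited values, like those of 14.1% of genes, did not overlap. Pdgfrb differed by 0.07, Rgs5 by 0.13, Anpep by -0.16, Acta2 by 0.02 and Myh11 by 0.25, and none passed. The interaction called 0 of 7 members, and limma on the deposited values 2 (Anpep and Notch3), where it called 13.7% of all genes. For the 5 members other than Notch3 and Anpep it ranged from 0.03 for Pdgfrb to 0.34 for Acta2, with standard errors of 0.12 to 0.57.

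**Figure D4:**
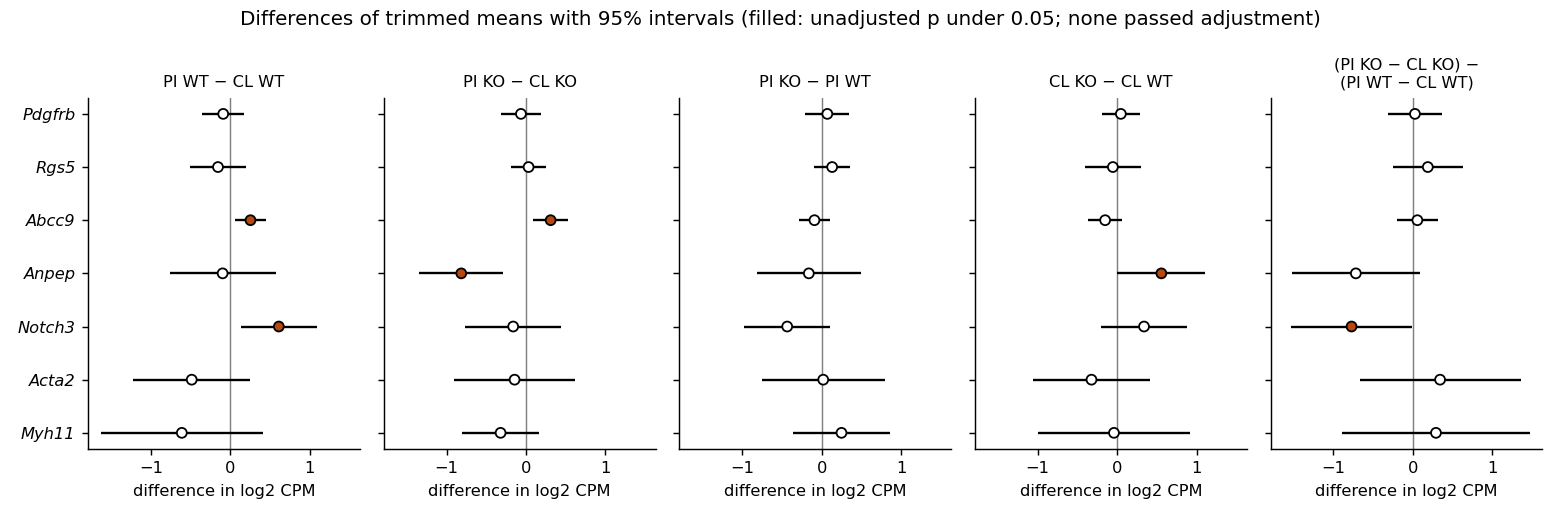
Differences of trimmed means in log2 CPM (x axes) with 95% intervals for the 7 mural genes (rows) in the 4 comparisons and the interaction, filled where the unadjusted p was under 0.05. No difference passed adjustment; the intervals of Pdgfrb, Rgs5 and Abcc9 are the narrowest and those of Myh11 and Acta2 among the widest.

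Other genes of these cells were taken from lists. Of 22 further pericyte genes 16 were tested, and 0 rose and 3 fell in PI WT and 0 rose and 2 fell in PI KO, with medians of -0.12 and -0.07. Gucy1a1, the nitric oxide receptor subunit of contractile mural cells that cortical neurons also express, fell in both, by 0.38 (SE 0.08, adjusted p = 0.0065) and by 0.42 (SE 0.06, adjusted p = 0.0016, both by the limma-based test). Cspg4, the proteoglycan NG2 of pericytes and oligodendrocyte precursors, fell by 0.53 in WT (SE 0.12, adjusted p = 0.0164 by the same test), from 3.08 to 2.55 log2 CPM. Its KO difference was -0.27 (SE 0.17, adjusted p = 0.381). The phosphodiesterase gene Pde5a fell by 0.27 in WT and Rgs4, which neurons express strongly, by 0.33 in KO. Pde5a differed by -0.09 in KO and Rgs4 by -0.48 in WT (adjusted p = 0.721 and 0.0510 by the limma-based test). Vtn, the gene of the secreted protein vitronectin that marks brain pericytes, differed by -0.08 and -0.03 and was not called. Higd1b, Ndufa4l2, Cox4i2, Foxf2, Ggt1 and Slc6a12 were not analysed here.

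Of 22 further smooth muscle genes, 13 were tested in WT and 12 in KO. Tpm1, a tropomyosin, rose by 0.34 in WT (SE 0.06, adjusted p = 0.0029) and 0.24 in KO (SE 0.06, adjusted p = 0.0230, both by the limma-based test). Mylk, the kinase that activates smooth muscle myosin, rose by 0.57 in KO (SE 0.13, adjusted p = 0.0142 by the same test) and differed by 0.54 in WT (SE 0.23, adjusted p = 0.178). Itga8, an integrin of smooth muscle that neurons also make, fell by 0.52 and 0.44. The counts were thus 1 higher and 1 lower in WT and 2 higher and 1 lower in KO, with medians of 0.06 in both. Myl9, the contractile regulatory light chain, differed by -0.41 and -0.38 and was not called. Cnn1, Lmod1, Des and Actg2 were not analysed here.

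Several genes that SRF drives in many cell types rose. Of 20 genes of SRF, its cofactors and such targets, 19 were tested, and 6 rose and 0 fell in PI WT and 5 rose and 0 fell in PI KO, with medians of 0.19 and 0.24. Tagln2, an actin-binding relative of Tagln made by many cells, rose from 1.31 to 2.93 log2 CPM in WT, by 1.62 (SE 0.19, adjusted p = 0.00028 by the limma-based test), and by 1.53 in KO (SE 0.25, adjusted p = 0.0023). Filamin A (Flna) rose by 0.69 in both genotypes and the tropomyosin Tpm4 by 0.67 and 0.72. Srf itself differed by 0.19 and 0.10 and was not called. The difference between these genes and Acta2 and Myh11 was not tested.

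Of 7 genes of the PDGF system, 6 were tested and 0 were called in either genotype, with 1 at an unadjusted p under 0.05 in each and medians of 0.07 and -0.02. The endothelial ligand Pdgfb differed by 0.45 (SE 0.17, adjusted p = 0.124) in WT and 0.18 (SE 0.20, adjusted p = 0.633, both by the limma-based test) in KO. Of 20 Notch pathway genes, 16 were tested in WT and 17 in KO. Notch1, a receptor of endothelium, neural and other cells, rose by 0.41 in WT (SE 0.11, adjusted p = 0.0394 by the same test) and differed by 0.19 in KO (SE 0.11, adjusted p = 0.315). No other Notch pathway gene passed, the ligand Jag1 (0.19 and 0.24) and the targets Hes1 (0.27 and -0.11) and Hey1 (0.05 and -0.07) among them, and the medians were 0.04 and -0.11. Of 9 RGS genes of the same subfamily as Rgs5, 6 were tested, and Rgs8 fell in both genotypes (by 0.35 and 0.33). Rgs4 was called in KO alone, with a WT difference of -0.48, as above. The K-ATP, PDGF, Notch and RGS lists each count their own member (Abcc9, Pdgfrb, Notch3 and Rgs5).

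**Figure D5:**
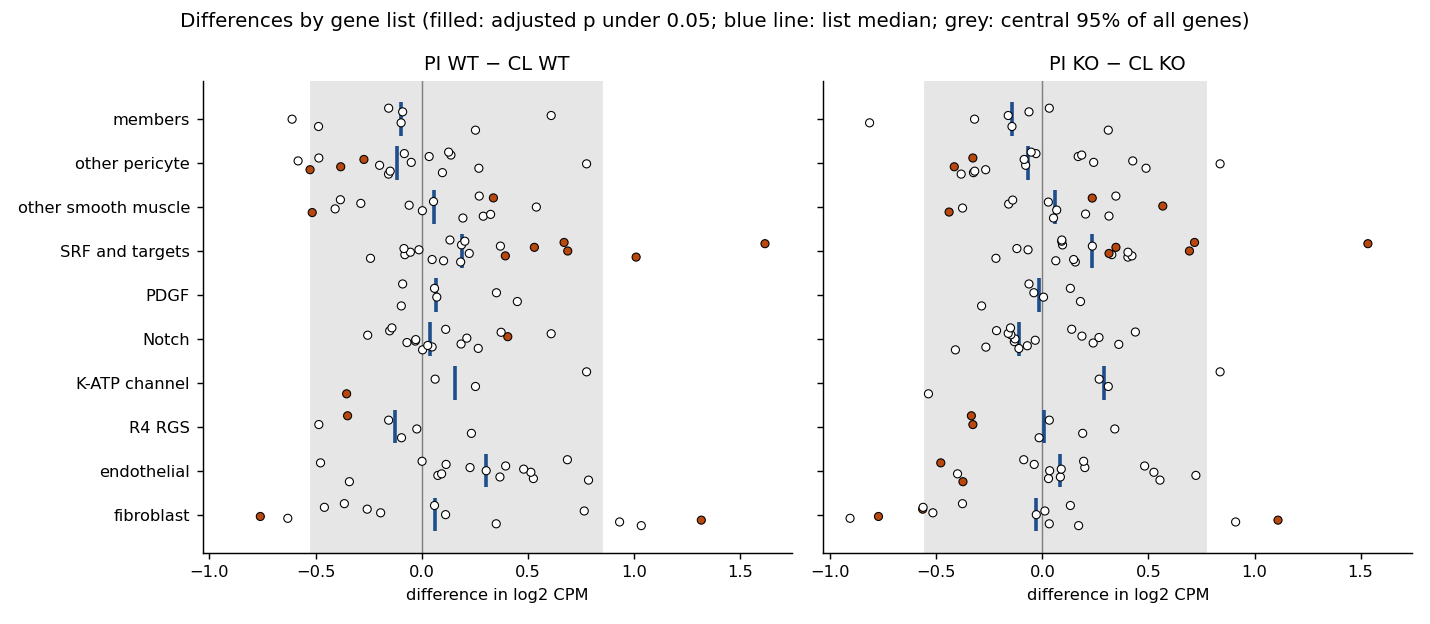
PI minus CL difference in log2 CPM (x axis) of each gene of 10 lists (rows) in WT (left) and KO (right), filled where the adjusted p was under 0.05, with the list median as a blue line and the central 95% of all genes in grey. The 7 members hold no filled point, while the list of SRF and its targets has 6 filled points in WT and 5 in KO, all above 0.

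Markers of the other cells of the tissue were read beside the members. Of 15 endothelial genes, 0 were called in WT (4 at an unadjusted p under 0.05) and 2 fell in KO (Slco1a4 by 0.48 and Abcb1a by 0.37, transporters of the blood-brain barrier), with medians of 0.30 and 0.09. Slco1a4 and Abcb1a differed by -0.48 and -0.34 in WT (adjusted p = 0.0937 and 0.334 by the limma-based test). Of 15 fibroblast genes, 13 were tested, Dcn rose by 1.32 and 1.11, Igf2 fell by 0.76 and 0.77, and Mgp fell by 0.56 in KO. Mgp differed by -0.26 in WT and was not called. Between CL KO and CL WT, 13 of 14 fibroblast genes had a positive difference, with a median of 0.32. For the interaction 12 of 13 were negative, with a median of -0.21, and 0 were called in either. Anpep went the same way in both (0.56 and -0.72), and the part of fibroblasts in its differences was not tested. The fibroblast genes summed to 131 to 152 CPM in the CL and 139 to 155 in the PI libraries of WT, and to 139 to 167 and 145 to 157 in those of KO. Of 13 infiltrating myeloid genes, 3 were tested and Lcn2 and Cd14 rose in both genotypes, and the summed level of the 3 was 5.21 to 6.78 CPM in the CL and 23.6 to 33.4 in the PI libraries of WT. Of 8 microglia genes 1 rose and 3 fell in WT and 2 rose and 1 fell in KO, Cx3cr1 rising and P2ry12 falling in both, and Siglech and Gpr34 falling in WT. Siglech and Gpr34 differed by -0.69 and -0.56 in KO and were not called.

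Of 7 astrocyte genes 1 rose and 3 fell in WT and 1 rose and 1 fell in KO, Aqp4 rising and Gja1 falling in both, and Slc1a2 falling in WT. The difference of Slc1a2 was -0.23 in each genotype. Of 10 neuronal genes 3 fell in each genotype, among them Camk2a and Snap25, and Gad2 rose in KO. Gad2 differed by 0.28 in WT and was not called. The neuronal genes summed to 7016 to 7569 CPM in the CL and 5918 to 6597 in the PI libraries of WT. In those of KO they summed to 7176 to 7427 and 5705 to 6354. With values drawn in, the sum was lower in every PI than in every CL library. Gene by gene, 7 of 10 differences were negative in WT and 9 of 10 in KO, with medians of -0.12 and -0.19. Of 6 haemoglobin and red cell genes 4 were tested and 0 were called, with 0 at an unadjusted p under 0.05. By the trimmed-mean test no gene of any list was called between genotypes or for the interaction, where 5 of 135, 10 of 134 and 1 of 132 list genes had an unadjusted p under 0.05. What part such shifts in the makeup of the RNA had in the members' differences was not tested.

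The genes most like the members across libraries were sought among 13354 genes by the lower of the Pearson correlations over the 12 WT and the 12 KO libraries, as a description. Libraries of an animal and of a group share their source, and the correlations run over both CL and PI. The r below are the highest among these genes and were not tested. Pairs of the 5 pericyte genes correlated by -0.38 (Abcc9 with Anpep) to 0.78 (Pdgfrb with Rgs5) in WT. In KO the range was -0.31 (Abcc9 with Anpep) to 0.45 (Rgs5 with Notch3), so their mean stands for no single shared pattern. For the mean of the 5 pericyte genes, the closest were Sdk2, a cell adhesion gene, at a lower r of 0.72, and Gm37524, Fam50a, 9530059O14Rik and 9430087J23Rik at 0.71 to 0.72. For the mean of Acta2 and Myh11 the closest was Atp10a, a lipid flippase gene, at 0.80, followed by Mprip, which encodes a protein that binds myosin phosphatase, at 0.75, and by Emsy, Kif13b and Gm5822 at 0.70 to 0.72.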

How the data were processed

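Total RNA from the cortex of 12 mice, a CL and a PI sample of each, was extracted with TRIzol, treated with DNase, depleted of ribosomal RNA with RiboCop and sequenced from CORALL libraries, per the labels' protocols. The authors deposited log2 CPM in 4 tables of 12 libraries, per the file headers, on the build mm10 per the submitters' processing notes. Aligner, counting, strand and scaling are not given in the sources used here. Groups came from the samples' titles, and 0 columns were unused. In every gene the deposited log2 values of a group were drawn in to its quartiles, 0.75 of the second lowest plus 0.25 of the next, and likewise at the top, so the 4 inner values were solved for. Depth was the step making low values whole (within 0.06 read, 80.0% to 92.0% whole, where chance gives 12%).

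Trimmed means were compared with Winsorized variances (6 degrees of freedom, 12 for the interaction), moderated with a trend in limma 3.58.1 (R 4.3.3), two-sided. Values in different tables were not tested together except in the interaction. It set the PI minus CL difference within the KO table against that within the WT table and pooled their variances, although these tables were scaled separately. By their titles, PI and CL libraries with the same number and genotype come from 1 animal, and the deviations of such pairs correlated by -0.0051 to 0.22 in WT and -0.016 to 0.19 in KO. The test was tried on simulated data. Alternatives were limma on the deposited values with and without library weights or a replicate block, a paired trimmed-mean test, no trend, median centring, log2(CPM + 1), a filter at 1 log2 CPM and group medians. The 6 libraries of a group are biological replicates per the series' text.

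Named were all members and, of 14 other lists, up to 3 called genes with the smallest p and the 1 with the largest difference, with a few added after their values were seen. Members and lists were chosen with earlier results of these data known.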

Additional observations from a re-analysis of the deposited data

How the results depend on the processing

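No member was called in any comparison by the trimmed-mean test as reported. The paired trimmed-mean test, with the animal as a replicate block, also called 0 members in PI against CL, though it called 2275 genes in WT and 2154 in KO in place of 1537 and 1440. limma on the deposited values called 3 members in PI WT against CL WT (Abcc9, Notch3, Acta2), 3 in PI KO against CL KO (Abcc9, Anpep, Myh11), 1 in PI KO against PI WT (Notch3), 2 in CL KO against CL WT (Abcc9, Anpep) and 2 for the interaction (Anpep, Notch3), and with library weights the counts were 3, 3, 1, 2 and 2. With a replicate block it called 4 in WT (Myh11 added), 3 in KO and 1 in CL KO against CL WT (Anpep), where it called 45.6%, 47.1% and 13.04% of all genes. This alternative takes the drawn-in spread at face value, and it called 6459, 6666, 2388, 2311 and 1940 genes in all, where the trimmed-mean test called 1537, 1440, 3, 4 and 0. In PI KO against CL KO, 2 members (Abcc9, Anpep) were called without a trend in the prior variance, where 739 genes were called, and 1 (Anpep) with median centring (adjusted p = 0.0425), with log2(CPM + 1) (0.0441) and with the filter (0.0412), all by the limma-based test; over all its alternatives in that comparison the adjusted p of Anpep ran from 2.6e-05 to 0.0702, the latter in the paired trimmed-mean test. Without a trend 1015 genes were called in WT. Between genotypes numbers pair no animals (same-numbered libraries correlated by a median of -0.014 in PI and 0.032 in CL), and the replicate block in the paired test called 0 members and 6 and 85 genes. Rgs5 in PI KO against CL KO turned to -0.0036 with median centring, and as a difference of group medians Acta2 in PI KO against PI WT turned from 0.02 to -0.14. Differences of group medians were classed as the same as those of trimmed means in 28 of 28 values, this turn of Acta2 included. The low read numbers of Acta2, Anpep, Notch3 and Myh11 limit what could be detected, and the lowest and highest library of each gene and group cannot be seen.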
